A study of Mus musculus with 9 samples.

Results

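The genes described here make, store and burn fatty acids, and they were followed in αTC1 cells, a glucagon-producing line derived from mouse pancreatic alpha cells. The set holds 56 genes chosen by name from the 33212 rows of the deposited count table, and every one of them has a row. By role, 14 belong to synthesis, 19 to activation, uptake, storage and lipolysis, and 23 to oxidation. Cells had been treated for 7 days with 4 µM EPZ011989, an inhibitor of the histone methyltransferase EZH2 (4 libraries), or with the solvent DMSO (5 libraries). All libraries come from the same line, and no other drug or genotype was part of the comparison. The labels call the libraries biological replicates but do not say that they came from separate cultures, so the p-values given here speak only of library-to-library spread, which may be technical.

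Fatty acid synthesis starts in the cytosol, where citrate is split to acetyl-CoA, acetyl-CoA is carboxylated to malonyl-CoA, and fatty acid synthase joins the units to palmitate, which elongases and desaturases then modify. Fatty acids are activated to acyl-CoA and either esterified in steps to triglyceride, which is kept in lipid droplets and released again by lipases, or moved into mitochondria by the carnitine shuttle and shortened by β-oxidation. Malonyl-CoA, the product of the carboxylases, inhibits the entry enzyme of the shuttle, so that both directions are coupled. In alpha cells, fatty acid oxidation is a source of ATP and has been linked to glucagon secretion at low glucose.

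Each library held 60274140 to 74651782 counts. Levels are counts divided by the TMM-scaled size of the library, in CPM, and values of single libraries are listed by replicate number. Ezh2, the target of the drug, averaged 209 ± 6.79 CPM with EPZ011989 and 199 ± 5.46 CPM with DMSO (SD, n = 4 and 5), which does not check the treatment, since the drug acts on the enzyme and not on its RNA. Alpha cell markers (8 genes, Gcg foremost) summed to 19842 to 27081 CPM with EPZ011989 and to 24142 to 26546 CPM with DMSO. Of 6 beta cell genes, Ins1, Pdx1 and Ucn3 were at 0 in all 9 libraries, and Slc2a2 was at or near 0. Ins2 rose from a mean of 0.653 CPM with DMSO to 4.85 CPM with EPZ011989 (edgeR adjusted p = 5.72e-05). Mafa rose from 0.541 to 1.78 CPM (edgeR adjusted p = 0.0132). Of 9 adipocyte markers, Adipoq, Lep, Retn, Cfd and Cidec were at 0 in every library. Lpl alone exceeded 1 CPM, at 813 to 954 CPM with EPZ011989 and 944 to 1074 CPM with DMSO. It did not pass the test (edgeR adjusted p = 0.120). The 7 fibroblast markers summed to 29.5 to 41.2 CPM with EPZ011989 and to 7.25 to 9.84 CPM with DMSO, mostly through Pdgfra, with Dcn and Lum at or near 0. Of the 4 fibroblast markers tested, 3 rose: Pdgfra, Thy1 and Col1a1. Thy1 averaged 3.28 CPM with EPZ011989 and 0 with DMSO, and Col1a1 1.15 and 0.128 CPM. The part of these markers in the values given here was not tested. EPZ011989 library 2 stood apart from the other treated libraries on the second principal component, which held 10.9% of the variance and had EPZ011989 library 4 at its other end, and results that rest on library 2 are given with and without it. In a bulk sample, fewer cells of a kind and less RNA per cell cannot be told apart.

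Of the 56 genes, 54 passed the filter on low counts, and the remaining 2, Elovl2 and Ehhadh, were near 0. With EPZ011989, 10 of the 54 rose and 7 fell (edgeR quasi-likelihood F test, adjusted p under 0.05 over all 14754 genes tested), which is 18.5% and 12.96%, against 16.2% higher and 7.96% lower among all genes tested. Among the 48 members with a mean of at least 10 CPM, 8 rose and 7 fell (16.7% and 14.6%), and the shares among all genes at that level were 9.87% and 11.4%. The median log2 fold change was -0.01 over the 54 members and 0.03 over all genes tested. The genes of the pathway had no common direction: 27 of the 54 had a positive log2 fold change. All treated libraries lay above all DMSO libraries in 6 members and below them in 7, where 16.1% and 8.77% of all genes tested did so. The calls of Elovl7 in elongation, Dgat2 in triglyceride formation, Cpt1a in the carnitine shuttle and Acads in the oxidation of short chains held under each of the 23 alternative settings run, while the other 13 were each lost under at least 1. With upper-quartile scaling the split was 11 higher and 3 lower, and with library size alone 10 higher and 4 lower, against 10 and 7 with TMM scaling. Over all genes tested, these settings gave 2735 higher and 776 lower, 2685 and 865, and 2388 and 1174. Without EPZ011989 library 2 the split of members was 14 higher and 11 lower, where all genes tested gave 2939 and 2377. Without EPZ011989 library 1 the split of members was 6 and 6, where all genes tested gave 1861 and 903.

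**Figure D1:**
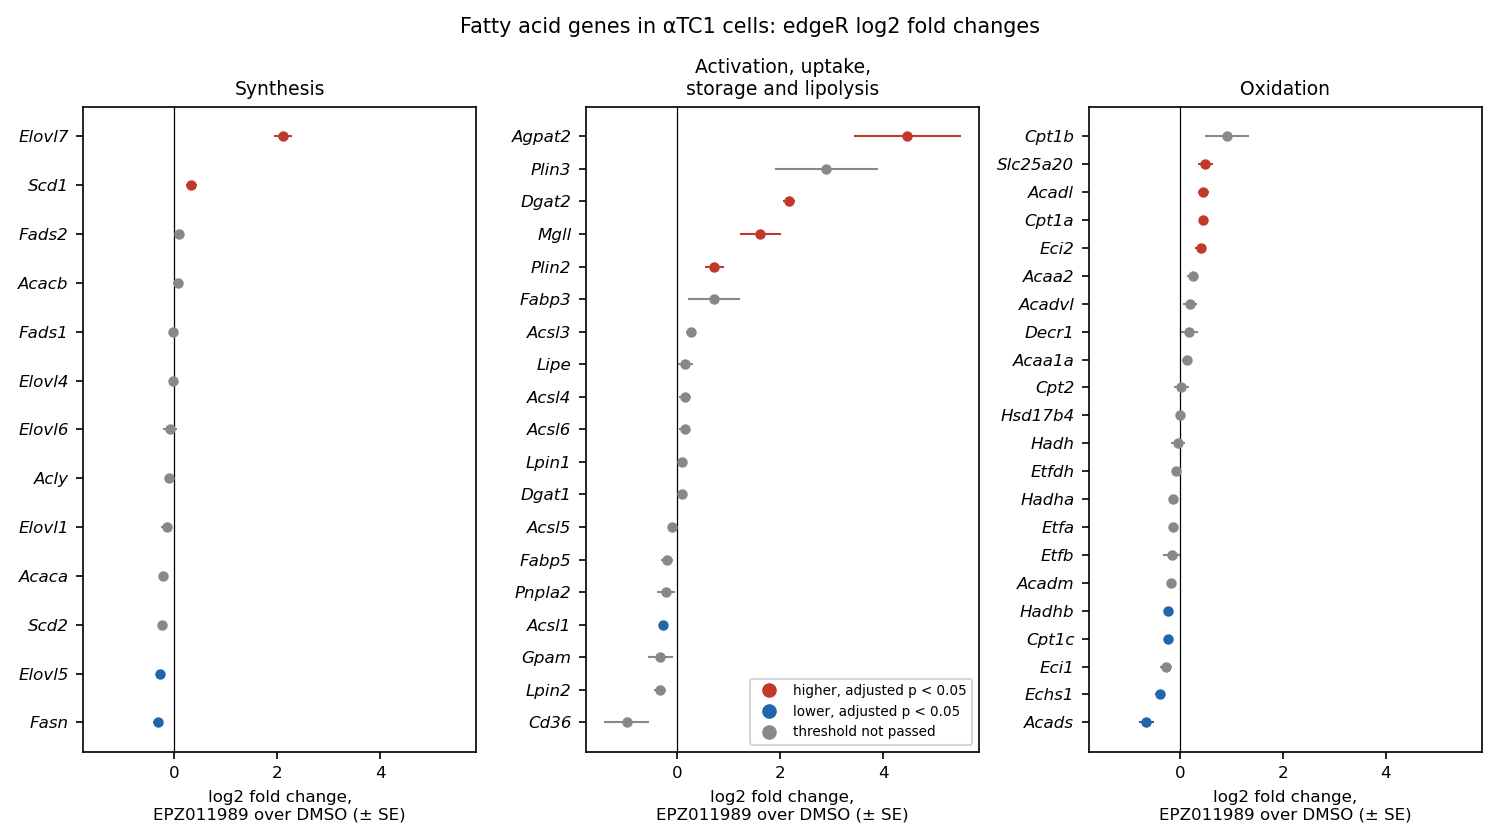
Log2 fold change of each of the 54 members tested, EPZ011989 over DMSO, with its standard error as a bar, in panels for synthesis, for activation, uptake, storage and lipolysis, and for oxidation. Red points passed the test as higher (10 genes) and blue points as lower (7 genes), and most members lie within 0.5 of 0 on the log2 scale.

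In synthesis, 2 of the 13 members tested rose (Elovl7, Scd1), 2 fell (Fasn, Elovl5) and 9 did not pass, with a median log2 fold change of -0.08. That was 15.4% higher and 15.4% lower, against 16.2% and 7.96% of all genes tested. Among the 4 genes of carbon supply and chain building, only Fasn, fatty acid synthase, which makes palmitate, passed the test. Fasn (chr11:120805846-120824547, GRCm38) was at 304, 247, 271 and 301 CPM in the 4 EPZ011989 libraries, against 376, 359, 318, 379 and 309 CPM in the 5 DMSO libraries. All treated libraries lay below all DMSO libraries, but the highest treated value was close to the lowest DMSO value. The log2 fold change was -0.31 ± 0.09 (SE) with an adjusted p of 0.0282 (edgeR), and it missed the threshold without EPZ011989 library 3 (0.0818), without DMSO library 1 (0.0664), 2 (0.0678) or 4 (0.0751), with upper-quartile factors (0.0695) and with the length trend removed (0.128). Acly, ATP-citrate lyase, which supplies cytosolic acetyl-CoA, averaged 328 ± 13.9 CPM with EPZ011989 and 349 ± 26.4 CPM with DMSO (SD, n = 4 and 5), and its log2 fold change of -0.09 ± 0.07 did not pass the test (edgeR adjusted p = 0.420). Acaca, the cytosolic acetyl-CoA carboxylase, averaged 40.2 ± 4.15 CPM with EPZ011989 and 46.5 ± 2.95 CPM with DMSO (log2 fold change -0.21 ± 0.08, edgeR adjusted p = 0.0969), and it passed without EPZ011989 library 2 (log2 fold change -0.29, edgeR adjusted p = 0.0116). Acacb, the carboxylase of the outer mitochondrial membrane, whose malonyl-CoA restrains the carnitine shuttle, had a log2 fold change of 0.07 ± 0.09. Per kilobase of exon, Acacb made up 42.2 ± 0.511% of the sum of both carboxylases with EPZ011989 and 37.5 ± 1.86% with DMSO.

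The 250 bases before the Fasn start are shown because this gene is the central enzyme of synthesis. They lie at chr11:120824548-120824797 on the minus strand, from RefSeq for GRCm38.p6, are written 5′ to 3′, and have the 33 CG dinucleotides in capitals.
Fasn: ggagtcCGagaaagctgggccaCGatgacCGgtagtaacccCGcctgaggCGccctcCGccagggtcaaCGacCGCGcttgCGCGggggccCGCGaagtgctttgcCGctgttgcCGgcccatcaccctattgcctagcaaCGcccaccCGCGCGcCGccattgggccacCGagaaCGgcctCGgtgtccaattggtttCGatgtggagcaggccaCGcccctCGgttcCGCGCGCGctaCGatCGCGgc
The wider window to 50 bases past the start held 39 CG, more than 95.7% of all promoters in the table had.

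Among the desaturases, Scd1 rose while its more abundant paralog Scd2 did not pass the test. Both enzymes place the first double bond into saturated acyl-CoA, and the genes lie 87590 bases apart on chromosome 19. Scd1 was at 52.6, 56.1, 48.4 and 39.7 CPM in the EPZ011989 libraries, against 42.3, 37.4, 39.2, 38.9 and 36.8 CPM in the DMSO libraries. EPZ011989 library 4 fell inside the DMSO range, and the other treated libraries lay above it. The log2 fold change was 0.34 ± 0.10 (edgeR adjusted p = 0.0280), and leaving out any of 6 libraries (EPZ011989 1 or 3, DMSO 2, 3, 4 or 5) gave an adjusted p of 0.0623 to 0.108. Scd2 was at 314, 339, 266 and 274 CPM with EPZ011989, against 370, 347, 359, 353 and 321 CPM with DMSO. The groups overlapped through EPZ011989 library 2 and DMSO library 5, and the log2 fold change was -0.23 ± 0.08 (edgeR adjusted p = 0.0692). Scd2 passed as lower in 8 of the 23 alternatives, among them without EPZ011989 library 2 (edgeR adjusted p = 0.00612) and without DMSO library 5 (0.0402). Per kilobase of exon, Scd1 made up 15.6 ± 1.22% of the sum of both with EPZ011989 and 11.05 ± 0.266% with DMSO, and the treated libraries (13.9% to 16.9%) lay above all DMSO libraries (10.8% to 11.3%). Fads1 and Fads2, which desaturate polyunsaturated fatty acids, differed by -0.02 ± 0.07 and 0.10 ± 0.07 on the log2 scale and did not pass.

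Of the 5 elongases tested, 1 rose, 1 fell and 3 did not pass. Elovl7, an elongase of long-chain acyl-CoA (chr13:108214404-108285683), was at 19.1, 22.8, 16.8 and 15.9 CPM in the EPZ011989 libraries, against 3.90, 3.37, 4.94, 3.66 and 5.64 CPM in the DMSO libraries. All treated libraries lay far above all DMSO libraries. The log2 fold change was 2.12 ± 0.17, a 4.33-fold rise (edgeR adjusted p = 8.94e-06), and it ranged from 2.00 to 2.23 over the alternatives. Elovl5, which elongates polyunsaturated acyl-CoA, was at 39.5, 41.3, 37.7 and 37.9 CPM with EPZ011989, against 48.9, 46.6, 48.2, 47.7 and 43.3 CPM with DMSO. These groups did not overlap either, and the log2 fold change was -0.26 ± 0.07 (edgeR adjusted p = 0.0137). It missed the threshold with library size alone (edgeR adjusted p = 0.0541) and with replicate number as block (0.0668). Elovl6, which lengthens palmitate, and Elovl1 and Elovl4, which make very long chains, had log2 fold changes of -0.08 ± 0.13, -0.15 ± 0.11 and -0.02 ± 0.07 and did not pass. Elovl2 had 0 to 5 counts in the EPZ011989 libraries and 0 to 14 in the DMSO libraries, near the floor of 12 counts per library. Per kilobase of exon, Elovl7 made up 7.45 ± 0.892% of the summed elongase RNA with EPZ011989 and 1.67 ± 0.383% with DMSO. Elovl6, at 33.8 ± 5.64% and 34.8 ± 3.06%, and Elovl1, at 31.2 ± 6.07% and 33.2 ± 3.19%, held the highest shares in both groups.

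The Elovl7 promoter is shown as that of the member of synthesis with the largest change. The 250 bases before its start lie at chr13:108214154-108214403 on the plus strand (RefSeq, GRCm38.p6), with the 25 CG dinucleotides in capitals.
Elovl7: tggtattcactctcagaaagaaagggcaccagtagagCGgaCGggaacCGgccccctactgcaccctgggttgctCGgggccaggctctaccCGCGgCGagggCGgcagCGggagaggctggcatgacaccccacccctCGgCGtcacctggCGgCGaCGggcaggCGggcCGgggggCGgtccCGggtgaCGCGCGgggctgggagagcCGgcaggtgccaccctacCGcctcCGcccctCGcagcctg
In the whole window the Elovl7 promoter held 30 CG.

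**Figure D2:**
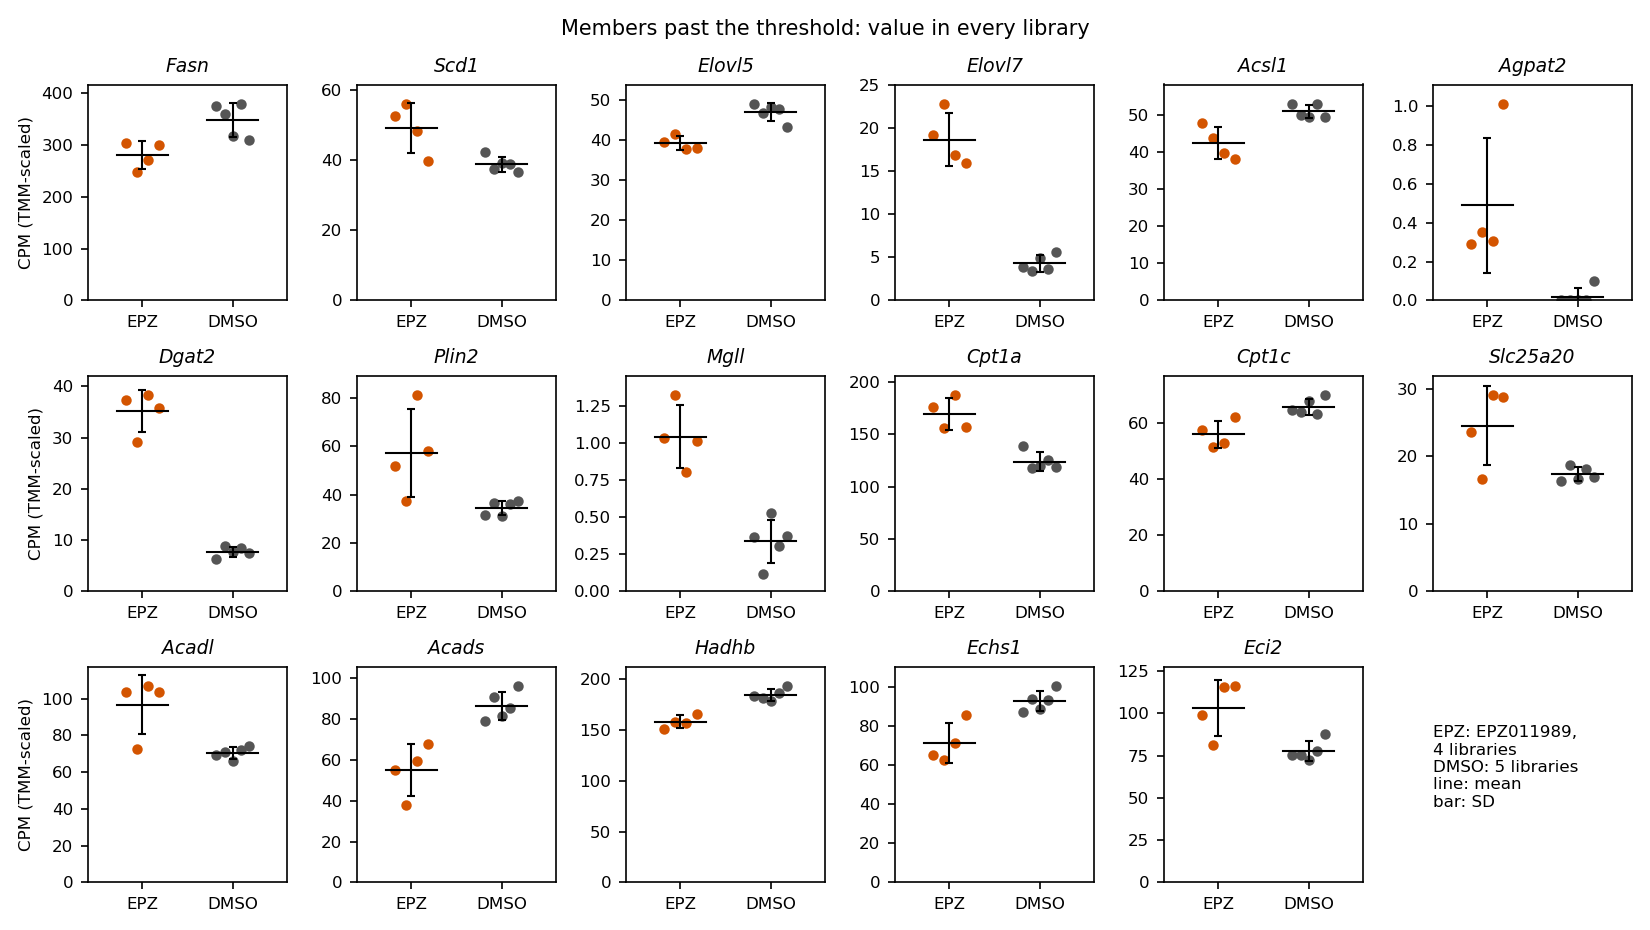
CPM of the 17 members past the threshold in every library, EPZ011989 (4 points, left) and DMSO (5 points, right), with the mean as a line and the SD as a bar, each axis starting at 0. Elovl7 and Dgat2 show groups far apart, while Scd1, Slc25a20, Acadl and Eci2 have a treated library inside the DMSO range.

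In activation, uptake, storage and lipolysis, 4 of 19 members rose (Agpat2, Dgat2, Plin2, Mgll), 1 fell (Acsl1) and 14 did not pass. These shares were 21.1% and 5.26%, against 16.2% and 7.96% of all genes tested. The arm had a median log2 fold change of 0.15. The median was between 0.07 and 0.20 in the alternatives. Of the 5 acyl-CoA synthetases, which activate fatty acids for every later use, Acsl1 alone passed the test. It was at 48.0, 44.0, 39.8 and 38.3 CPM with EPZ011989, against 53.0, 50.1, 49.6, 53.0 and 49.6 CPM with DMSO. All treated libraries lay below all DMSO libraries, with a log2 fold change of -0.26 ± 0.08 (edgeR adjusted p = 0.0308). The call was lost in 9 of 23 alternatives, with an adjusted p of 0.0548 to 0.0968 without EPZ011989 library 3 or 4 or DMSO library 1, 2 or 4, and 1039 of its exon bases are shared with a transcript model on the opposite strand. Acsl5, the most abundant synthetase per kilobase, averaged 38.7 CPM per kilobase with EPZ011989 and 41.7 with DMSO and did not pass, and neither did Acsl3 (log2 fold change 0.27 ± 0.10, edgeR adjusted p = 0.0816), Acsl4 or Acsl6. Acsl3 passed as higher with upper-quartile factors (edgeR adjusted p = 0.0372) and without EPZ011989 library 4 (0.0190).

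Of the 3 genes for uptake and binding of fatty acids, none passed. Cd36, a fatty acid translocase of the plasma membrane, was under 1 CPM in all libraries, at 0.140 to 0.712 CPM with EPZ011989 and at 0.619 to 0.907 CPM with DMSO. Fabp3, the heart fatty acid-binding protein, was under 1 CPM as well. Fabp5, the epidermal form, was the more abundant binding protein of the set, at 84.4 ± 14.8 CPM with EPZ011989 and 96.8 ± 9.43 CPM with DMSO (log2 fold change -0.20 ± 0.12, edgeR adjusted p = 0.262). It passed as lower without EPZ011989 library 4 (0.0298).

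Of the 6 genes of glycerolipid synthesis, Dgat2 and Agpat2 rose and 4 did not pass. Dgat2, an acyltransferase that turns diacylglycerol into triglyceride (chr7:99153658-99182719), was at 37.3, 29.1, 38.3 and 35.8 CPM in the EPZ011989 libraries, against 6.31, 8.85, 7.65, 8.53 and 7.42 CPM in the DMSO libraries. The groups were far apart, with a log2 fold change of 2.18 ± 0.12 and a fold of 4.53 (edgeR adjusted p = 8.01e-07), the smallest p of all members. It lay between 2.10 and 2.28 in every alternative run. Dgat1, the unrelated enzyme for the same reaction, was at 36.4, 35.5, 38.3 and 44.1 CPM with EPZ011989, against 34.3, 34.8, 35.7, 34.6 and 41.8 CPM with DMSO. These groups overlapped, and the log2 fold change of 0.09 ± 0.09 did not pass (edgeR adjusted p = 0.544). Per kilobase of exon, Dgat2 thus made up 47.4 ± 3.08% of both enzymes with EPZ011989 and 17.5 ± 2.36% with DMSO, and the ranges of 44.6% to 50.4% and of 14.9% to 20.1% did not meet.

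In the earlier steps, Gpam, the mitochondrial acyltransferase of the first step, spread widely with EPZ011989 (17.9 to 48.0 CPM, against 28.05 to 45.5 CPM with DMSO) and did not pass (log2 fold change -0.32 ± 0.24). Without EPZ011989 library 2, which was the highest, it did (log2 fold change -0.64, edgeR adjusted p = 0.0172). Agpat2, the lysophosphatidic acid acyltransferase whose loss causes lipodystrophy in humans, had 22, 25, 23 and 72 counts in the EPZ011989 libraries, against 0, 0, 0, 0 and 7 in the DMSO libraries. It was above the floor of 12 counts in every treated library, at 0.292 to 1.01 CPM, and below it in every DMSO library. If 4 counts are assumed to be 1 fragment, these are 37 fragments with EPZ011989 and 2 with DMSO, a ratio of 21.6 per scaled library size with an exact 95.0% interval of 5.58 to 185 for counting error only. The edgeR test called it (adjusted p = 0.00946), but its fitted fold change depends on the prior count, and 64 exon bases are shared with Egfl7 on the opposite strand. The call was lost without EPZ011989 libraries 2 and 4 together (edgeR adjusted p = 0.0685). Lpin1 and Lpin2, phosphatidate phosphatases, had log2 fold changes of 0.09 ± 0.08 and -0.33 ± 0.12 (edgeR adjusted p = 0.4997 and 0.0656), and Lpin2 passed as lower in 8 of 23 alternatives, among them without EPZ011989 library 2 (0.00430) and without DMSO library 5 (0.0270).

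At the droplet, Plin2, the coat protein that is made and kept where lipid is stored, was at 52.1, 37.5, 81.3 and 58.2 CPM in the EPZ011989 libraries, against 31.6, 36.7, 31.2, 36.0 and 37.3 CPM in the DMSO libraries. Library 2 was barely above the highest DMSO library, and library 3 was the highest. The log2 fold change was 0.73 ± 0.18 (edgeR adjusted p = 0.0120), between 0.51 and 0.95 in the alternatives. The call of Plin2 was lost with replicate number as block (edgeR adjusted p = 0.0695). Plin3, a coat protein found in most tissues, was scarce in these cells, with 35, 10, 27 and 29 counts with EPZ011989 and 0, 0, 0, 4 and 11 with DMSO. It missed the threshold (edgeR adjusted p = 0.0575) and passed in 8 alternatives, among them without EPZ011989 library 2 (0.0391) and without DMSO library 5 (0.0142).

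Of the 3 lipases, 1 passed. Pnpla2 (adipose triglyceride lipase) and Lipe (hormone-sensitive lipase), which take the outer chains off triglyceride and diacylglycerol, averaged 39.0 ± 11.1 and 15.2 ± 2.73 CPM with EPZ011989, against 45.2 ± 6.04 and 13.6 ± 2.11 CPM with DMSO, and neither passed. Mgll, the monoacylglycerol lipase, was at 1.03, 1.32, 0.804 and 1.01 CPM with EPZ011989, against 0.365, 0.118, 0.526, 0.304 and 0.371 CPM with DMSO. Its groups did not overlap, and the log2 fold change was 1.62 ± 0.40 (edgeR adjusted p = 0.0121), at a level near 1 CPM and with 167 exon bases shared with an antisense RNA. The call was lost without EPZ011989 libraries 2 and 4 together (edgeR adjusted p = 0.0768) and with replicate number as block (0.0897).

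In oxidation, 4 of the 22 members tested rose (Cpt1a, Slc25a20, Acadl, Eci2), 4 fell (Cpt1c, Acads, Hadhb, Echs1) and 14 did not pass, with a median log2 fold change of -0.02. Shares were 18.2% higher and 18.2% lower, against 16.2% and 7.96% of all genes tested. Of the 5 members of the carnitine shuttle, 2 rose and 1 fell. Cpt1a, the carnitine palmitoyltransferase that malonyl-CoA inhibits and that sets the entry of long chains into mitochondria (chr19:3322334-3385733), was at 176, 156, 187 and 157 CPM in the EPZ011989 libraries, against 139, 118, 120, 125 and 118 CPM in the DMSO libraries. The groups did not overlap, with a log2 fold change of 0.45 ± 0.08 (edgeR adjusted p = 0.00167) that stayed between 0.39 and 0.55 in the alternatives. Cpt1c, the isoform of neurons and the endoplasmic reticulum, was at 57.6, 51.6, 52.9 and 62.2 CPM with EPZ011989, against 64.6, 63.8, 67.7, 63.2 and 70.0 CPM with DMSO. It fell by 0.23 ± 0.07 on the log2 scale (edgeR adjusted p = 0.0408), close to the threshold. Leaving out EPZ011989 library 1 or 3 or any DMSO library took it to an adjusted p of 0.0566 to 0.122, and 366 of its exon bases are shared with an antisense RNA. Cpt1b, the muscle isoform, was at 4.20 ± 1.84 CPM with EPZ011989 and 2.22 ± 1.30 CPM with DMSO and did not pass (edgeR adjusted p = 0.157), though it did without DMSO library 3 (0.0450), and 2744 of its exon bases are shared with another gene model on the same strand. Per kilobase of exon, Cpt1a made up 66.3 ± 3.46% of the 3 isoforms with EPZ011989 and 56.6 ± 2.52% with DMSO, and Cpt1c made up 30.0 ± 2.63% and 41.1 ± 2.20%.

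The Cpt1a promoter is given as that of the shuttle's entry enzyme. Its 250 bases before the start lie at chr19:3323051-3323300 on the plus strand (RefSeq, GRCm38.p6), and capitals mark the 14 CG dinucleotides. RefSeq's start used here lies inside the GENCODE span of the gene.
Cpt1a: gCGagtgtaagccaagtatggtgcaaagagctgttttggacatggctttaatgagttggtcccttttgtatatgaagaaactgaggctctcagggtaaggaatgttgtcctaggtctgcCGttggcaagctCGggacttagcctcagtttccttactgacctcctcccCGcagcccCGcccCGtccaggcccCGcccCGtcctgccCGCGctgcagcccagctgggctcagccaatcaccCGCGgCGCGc
The whole Cpt1a window held 22 CG.

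Slc25a20, the translocase that carries acylcarnitine across the inner membrane, was at 23.6, 16.6, 29.1 and 28.8 CPM with EPZ011989, against 16.4, 18.7, 16.7, 18.2 and 16.96 CPM with DMSO. EPZ011989 library 2 lay inside the DMSO range and the other treated libraries above it. The log2 fold change was 0.50 ± 0.15 (edgeR adjusted p = 0.0297), and leaving out EPZ011989 library 1, 3 or 4 or DMSO library 1, 3, 4 or 5 gave 0.0675 to 0.101. Cpt2, which returns the chain to CoA inside the mitochondrion, ranged from 61.2 to 110 CPM with EPZ011989 and from 81.3 to 93.6 CPM with DMSO, with EPZ011989 library 2 at the bottom, and did not pass (log2 fold change 0.03 ± 0.14).

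The acyl-CoA dehydrogenases, which open each round of β-oxidation for chains of a given length, included 1 that rose and 1 that fell. Acadl, the long-chain enzyme, was at 104, 72.6, 107 and 103 CPM with EPZ011989, against 69.4, 71.2, 66.0, 72.0 and 74.4 CPM with DMSO. Libraries 1, 3 and 4 lay well above the DMSO range and library 2 inside it. The log2 fold change was 0.45 ± 0.11 (edgeR adjusted p = 0.0101, 0.0610 without EPZ011989 library 1 and 0.0576 with replicate number as block). Acads, the short-chain enzyme (chr5:115110299-115119346), was at 55.2, 37.7, 59.8 and 67.7 CPM with EPZ011989, against 79.3, 90.8, 81.6, 85.6 and 96.3 CPM with DMSO. The groups did not overlap, and library 2 was the lowest of all. Acads fell by 0.65 ± 0.14 on the log2 scale (edgeR adjusted p = 0.00682), with a value from -0.78 to -0.52 in the alternatives. Acadvl and Acadm, the enzymes for very long and medium chains, had log2 fold changes of 0.21 ± 0.14 and -0.16 ± 0.08 and did not pass, Acadvl passing as higher without EPZ011989 library 2 (edgeR adjusted p = 0.0215). Etfa, Etfb and Etfdh, which hand the electrons of all these dehydrogenases to the respiratory chain, had log2 fold changes of -0.13 ± 0.08, -0.15 ± 0.17 and -0.08 ± 0.06, and none passed.

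The Acads promoter is shown for comparison with that of Cpt1a, since both calls held in every alternative and had opposite signs. Its 250 bases before the start lie at chr5:115119347-115119596 on the minus strand (RefSeq, GRCm38.p6), and capitals mark the 14 CG dinucleotides.
Acads: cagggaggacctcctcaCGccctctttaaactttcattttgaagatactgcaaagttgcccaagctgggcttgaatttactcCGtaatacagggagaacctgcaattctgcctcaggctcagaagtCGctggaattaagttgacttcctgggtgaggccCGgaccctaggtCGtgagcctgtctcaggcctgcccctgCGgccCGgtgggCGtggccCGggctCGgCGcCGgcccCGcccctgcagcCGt
In the whole Acads window 17 CG were counted.

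Of the 8 genes of later mitochondrial steps, 2 fell and 1 rose. Hadhb, the thiolase subunit of the mitochondrial trifunctional protein, was at 151, 158, 157 and 166 CPM with EPZ011989, against 183, 181, 179, 187 and 193 CPM with DMSO. The groups did not overlap. The log2 fold change was -0.22 ± 0.06 (edgeR adjusted p = 0.0142, 0.0667 with upper-quartile factors and 0.118 with replicate number as block). Hadha, its partner subunit, whose gene starts 85 bases away on the other strand, had a log2 fold change of -0.13 ± 0.07 that did not pass (edgeR adjusted p = 0.249). Echs1, the short-chain enoyl-CoA hydratase, was at 65.5, 62.7, 71.5 and 85.9 CPM with EPZ011989, against 87.4, 94.2, 89, 93.6 and 101 CPM with DMSO. Its groups did not overlap. The log2 fold change was -0.38 ± 0.09 (edgeR adjusted p = 0.0132, 0.0607 with the length trend removed and 0.0584 with replicate number as block). Eci2, an enoyl-CoA isomerase needed for unsaturated chains, was at 99.2, 81.4, 116 and 116 CPM with EPZ011989, against 75.6, 75.5, 72.6, 77.5 and 87.6 CPM with DMSO. It rose by 0.41 ± 0.11 on the log2 scale (edgeR adjusted p = 0.0174), with library 2 inside the DMSO range, and leaving out EPZ011989 library 1, 3 or 4 or DMSO library 1, 3 or 4 gave 0.0559 to 0.0654. Echs1 shares 142 exon bases with Paox and Eci2 shares 189 with an antisense RNA, both on the opposite strand, and reads there could not be told apart if counting ignored strand. Eci1, the other mitochondrial isomerase, had the opposite sign (log2 fold change -0.27 ± 0.12, edgeR adjusted p = 0.125) and passed without EPZ011989 library 4 (0.0378). The difference between both isomerases was not tested. Hadh, Acaa2 and Decr1 did not pass. Acaa2, the last thiolase, had 0.25 ± 0.11 and passed without EPZ011989 library 2 (edgeR adjusted p = 0.0101).

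Of the peroxisomal enzymes, Hsd17b4 and Acaa1a were well expressed and did not pass (log2 fold changes 0.00 ± 0.08 and 0.14 ± 0.10). Acaa1a passed as higher without EPZ011989 library 2 (edgeR adjusted p = 0.0105), and its reads may be shared with the near-identical Acaa1b. Ehhadh, the bifunctional enzyme of peroxisomes and a known PPARα target in liver, had 0, 8, 0 and 15 counts with EPZ011989 and 0 in all DMSO libraries, too few for a fold.

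The spread among the treated libraries differed by arm. EPZ011989 library 2 was the lowest of the 4 treated libraries in 19 of 22 oxidation members and the highest in 0, while it was lowest in 4 and highest in 8 of 13 synthesis members, and lowest in 8 and highest in 6 of 19 members of storage and lipolysis. Over all genes tested it was lowest in 39.0% and highest in 38.6%. In the 23 tested oxidation genes outside the set, library 2 was lowest in 11 and highest in 7. Summed over the arm, oxidation reached 1735, 1458, 1860 and 1952 CPM with EPZ011989, against 1710, 1779, 1679, 1770 and 1870 CPM with DMSO, so that the treated libraries spread to both sides of the DMSO range. The sum for synthesis was 1661, 1613, 1530 and 1545 CPM with EPZ011989, against 1842, 1737, 1681, 1768 and 1606 CPM with DMSO, where DMSO library 5 overlapped the treated libraries. The sum for storage and lipolysis was 790, 791, 843 and 784 CPM with EPZ011989, against 786, 780, 792, 779 and 805 CPM with DMSO, and these groups overlapped. A trend with exon length moved with these libraries: Spearman's rho across genes between exon length and the deviation from the group mean was 0.07, 0.36, -0.25 and -0.40 in the EPZ011989 libraries and 0.32, -0.19, 0.19, -0.00 and -0.38 in the DMSO libraries, and genes are not independent replicates. The median exon length was 3879 bases for oxidation, 4852 for synthesis, 4357 for storage and lipolysis, and 4163 over all genes tested. The part of this trend in the low values of library 2 was not tested. Without library 2, oxidation had 7 higher and 4 lower members, synthesis 2 and 4, and storage and lipolysis 5 and 3. All genes tested then gave 2939 higher and 2377 lower, against 2388 and 1174 with every library.

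**Figure D3:**
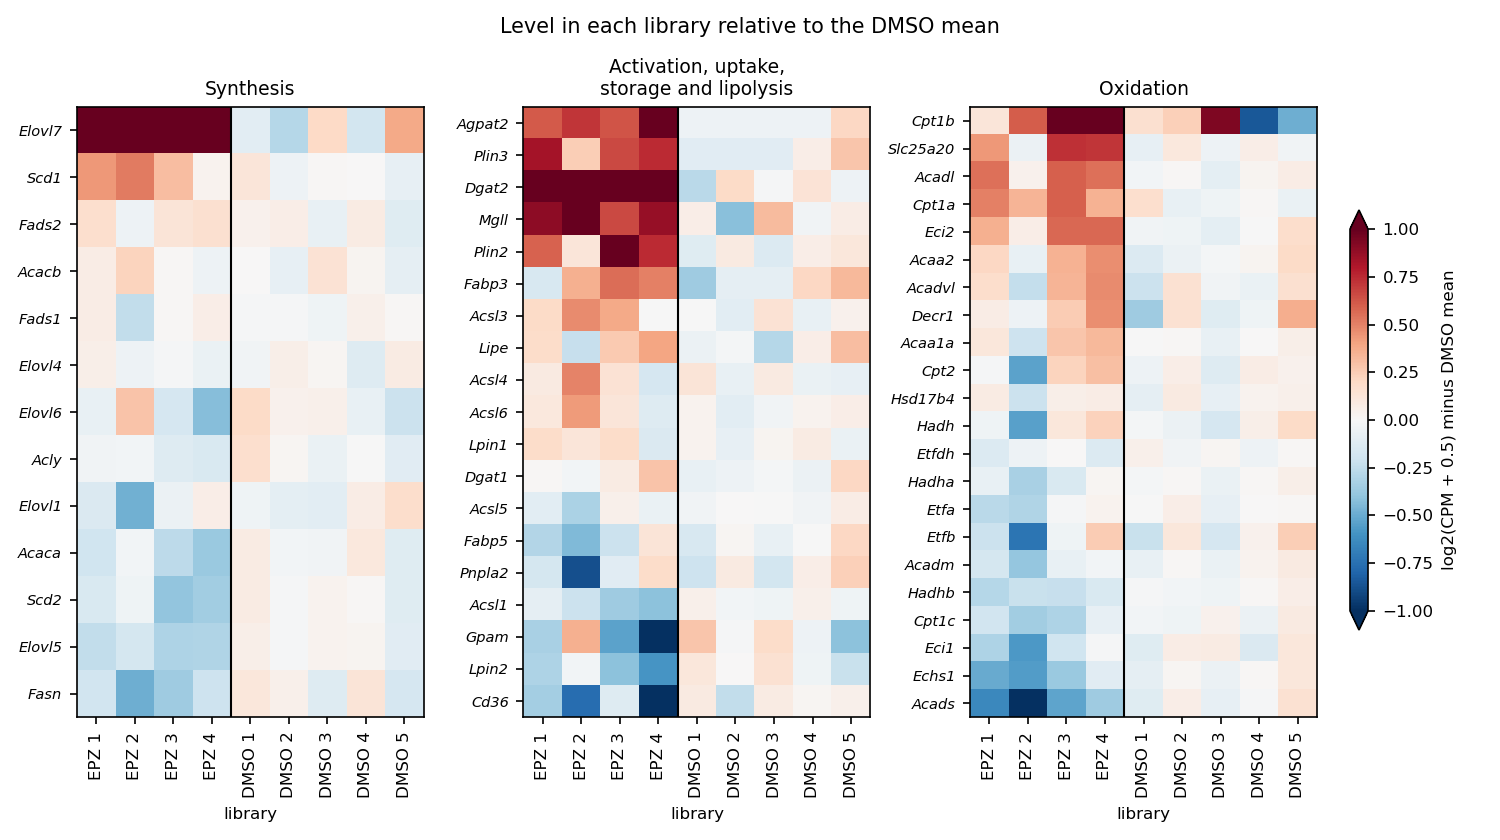
Log2(CPM + 0.5) of each tested member in each library minus its mean over the DMSO libraries, with EPZ011989 libraries left of the line and DMSO libraries right of it, and the colour scale ending at 1 in both directions. In the oxidation panel the column of EPZ011989 library 2 is the bluest of the treated columns, and it is the lowest of the 4 in 19 of 22 genes.

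**Figure D4:**
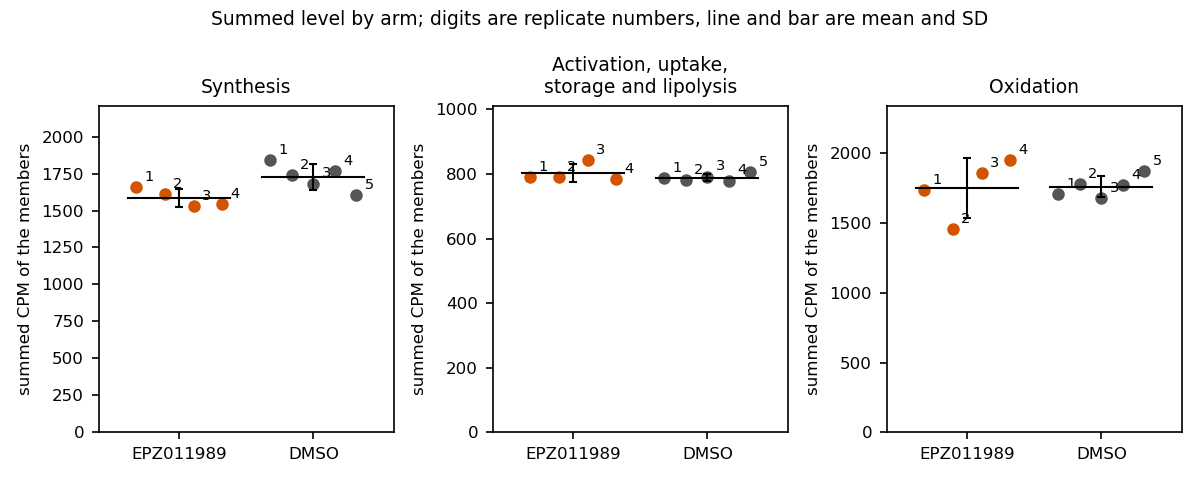
Summed CPM of the members of each arm by library, EPZ011989 left and DMSO right, with replicate numbers beside the points and the mean and SD as line and bar. Sums for oxidation averaged 1751 ± 215 CPM with EPZ011989 and 1762 ± 73.7 CPM with DMSO (SD, n = 4 and 5), with library 2 at 1458 CPM.

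The order of genes per kilobase depends on the annotation, since exon length here counts every annotated exon of a gene. Per kilobase of exon so counted, the 3 most abundant members in both groups were Etfb (86.6 CPM per kilobase with EPZ011989, 96.1 with DMSO), Acly (62.2 and 66.1) and Scd2 (54.6 and 64.1). Of the 1164 exon bases of Etfb, 617 are shared with another gene model on the same strand. Acadl came next with EPZ011989, at 48.2 CPM per kilobase, against 35.2 with DMSO, where Fads1, Acsl5, Acads, Etfa and Cpt2 also stood above it. RNAs for synthesis and for oxidation were thus both abundant in these cells. At the other end, Elovl2, Ehhadh, Agpat2, Plin3, Mgll and Cd36 were at or under 0.231 CPM per kilobase in both groups, and of the 10 members that rose, Agpat2 and Mgll are at this low end.

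Promoter sequence was available for 46 of the 56 members in the RefSeq table (GRCm38.p6), as windows from 250 bases before to 50 after the start. The 8 members that rose and have a window held a median of 24 CG (10 to 34), the 7 that fell 20 (8 to 39), and the 29 that did not pass 17 (1 to 37), against a median of 7 over all 27025 promoters (quartiles 3 and 21). All promoters include those of genes not expressed in these cells, and no comparison with expressed genes alone was made. Letters were searched on both strands. The sterol response element TCACNCCAC occurred in 1 of 46 member promoters (2.17%, Ehhadh) and in 1.22% of all promoters. The E-box CACGTG occurred in 6 (13.04%, against 7.24% of all), namely Elovl4, Elovl5, Lpin2, Plin2, Lipe and Mgll. CCAAT occurred in 22 (47.8%, against 37.9%), Fasn and Cpt1a among them. A match describes letters only.

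Genes of the same pathway outside the set were read from a list of 124, of which 103 passed the filter. With EPZ011989, 17 rose (16.5%) and 14 fell (13.6%), against 16.2% and 7.96% of all genes tested. Among the regulators, Mlxipl, the carbohydrate response factor ChREBP that drives Fasn and Acly in liver, was at 2.73, 1.72, 2.00 and 2.08 CPM with EPZ011989, against 0.514, 0.634, 0.886, 0.388 and 0.200 CPM with DMSO (log2 fold change 2.02 ± 0.36, edgeR adjusted p = 0.00212). Its groups did not overlap, at a low level. Srebf1, which encodes the SREBP factor of fatty acid synthesis, did not pass the test, with 36.7 ± 2.75 CPM with EPZ011989 and 36.6 ± 3.72 CPM with DMSO. Srebf2, its relative for cholesterol synthesis, fell by 0.27 ± 0.06 on the log2 scale (edgeR adjusted p = 0.00877). Ppara, the receptor that drives oxidation genes such as Cpt1a and Ehhadh in liver, rose at a low level (1.601 ± 0.599 CPM with EPZ011989, 0.648 ± 0.239 CPM with DMSO, edgeR adjusted p = 0.0179), and Rxra, its partner, rose by 0.54 ± 0.08 on the log2 scale (edgeR adjusted p = 6.56e-04). Pparg was listed with 4 counts in 1 EPZ011989 library and 5 in 1 DMSO library, and Ppargc1a, a coactivator of oxidation genes, did not pass (log2 fold change -0.22 ± 0.16), although it passed as lower without EPZ011989 library 2 (edgeR adjusted p = 0.0151).

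Of 10 tested genes in AMPK and malonyl-CoA control, 2 rose and 1 fell. Mlycd, malonyl-CoA decarboxylase, which removes the inhibitor of Cpt1a, was at 47.1, 48.8, 50.0 and 47.6 CPM with EPZ011989, against 40.3, 38.2, 35.1, 33.9 and 39.8 CPM with DMSO. The groups did not overlap (log2 fold change 0.37 ± 0.07, edgeR adjusted p = 0.00347). Of the AMPK subunits, which phosphorylate the carboxylases as a complex, Prkag2 rose (log2 fold change 0.34 ± 0.07), Prkab1 fell (-0.37 ± 0.08), and the catalytic Prkaa2 did not pass (0.04 ± 0.16). Prkaa1, the other catalytic subunit, is added here after its values were seen. It was at 94.3, 120, 91.3 and 71.7 CPM with EPZ011989, against 127, 120, 123, 114 and 112 CPM with DMSO. EPZ011989 library 2 lay inside the DMSO range and the other treated libraries below it. Its log2 fold change of -0.34 ± 0.12 did not pass (edgeR adjusted p = 0.0727), and it passed as lower in 8 of 23 alternatives, among them DESeq2 (adjusted p = 0.0319) and, in edgeR, without EPZ011989 library 2 (0.00184). Acss2, which makes acetyl-CoA from acetate, rose by 0.59 ± 0.10 (edgeR adjusted p = 0.00124) and Idh1, a source of NADPH, by 0.29 ± 0.09 (0.0314), while Mecr of mitochondrial fatty acid synthesis fell by 0.41 ± 0.13 (0.0408). Leaving out 1 library ended the calls of Idh1 (edgeR adjusted p = 0.0563 to 0.0804 without EPZ011989 library 1 or 3 or any DMSO library) and Mecr (0.0540 to 0.0936 without EPZ011989 library 1 or 3 or DMSO library 2, 3, 4 or 5).

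Among relatives of the members, 4 of 17 tested genes of storage and lipolysis rose and 2 fell (23.5% and 11.8%). In elongation and desaturation, 2 of 9 rose and 2 fell (22.2% each). Among all genes tested, 16.2% rose and 7.96% fell. Mogat2, a monoacylglycerol acyltransferase of the same family as Dgat2, lies 36364 bases from Dgat2 on chromosome 7. It had 88, 32, 61 and 128 counts with EPZ011989, against 5, 5, 0, 0 and 0 with DMSO, a ratio of 22.8 per scaled library size with, under the same assumption, an exact 95.0% interval of 8.56 to 85.8 for counting error only (edgeR adjusted p = 0.00152). Fads3, a relative of the desaturases that lies 2654 bases from Fads2, was at 2.53, 2.46, 2.91 and 3.54 CPM with EPZ011989, against 0.474, 0.884, 0.789, 0.658 and 0.786 CPM with DMSO (log2 fold change 1.99 ± 0.22, edgeR adjusted p = 8.98e-05). Both had groups that did not overlap, whereas Fads1 and Fads2 beside Fads3 did not pass. Lipa, the lysosomal acid lipase, rose by 0.86 ± 0.10 (edgeR adjusted p = 1.33e-04), Fabp2 by 1.16 ± 0.29 (0.0129, and 0.128 without EPZ011989 libraries 2 and 4) and Abcd2, a peroxisomal importer of very long chains, by 1.28 ± 0.20 (0.00100). Fads6 fell by 0.47 ± 0.10 (edgeR adjusted p = 0.00474), Gpat3 by 0.28 ± 0.08 (0.0273) and Agpat5 by 0.23 ± 0.06 (0.0150). The 3-hydroxyacyl-CoA dehydratases of elongation, Hacd1 and Hacd3, rose by 0.88 ± 0.23 and fell by 0.28 ± 0.06 (edgeR adjusted p = 0.0170 and 0.00562), Hacd1 missing the threshold without EPZ011989 library 1 (0.0694), Gpat3 without EPZ011989 library 3 or 4 or DMSO library 1, 3 or 4 (0.0504 to 0.0831) and Agpat5 without EPZ011989 library 3 (0.0546).

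Of 4 ketone body genes 2 fell, a group too small for a share. Of 23 other oxidation genes 4 fell and 2 rose (17.4% and 8.70%), against 7.96% lower and 16.2% higher among all genes tested. Oxct1, which activates ketone bodies for oxidation, was at 576, 642, 549 and 528 CPM with EPZ011989, against 822, 790, 846, 793 and 820 CPM with DMSO. All treated libraries lay far below all DMSO libraries (log2 fold change -0.50 ± 0.07, edgeR adjusted p = 4.46e-04). Acat1, the mitochondrial acetoacetyl-CoA thiolase, fell by 0.40 ± 0.06 (edgeR adjusted p = 4.21e-04), Bdh1 by 0.32 ± 0.09 (0.0282), Acad11 by 0.40 ± 0.08 (0.00360) and Acad9 by 0.27 ± 0.06 (0.00830). Bdh1 lost its call without EPZ011989 library 3 or DMSO library 2, 4 or 5 (edgeR adjusted p = 0.0608 to 0.0719).

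**Figure D5:**
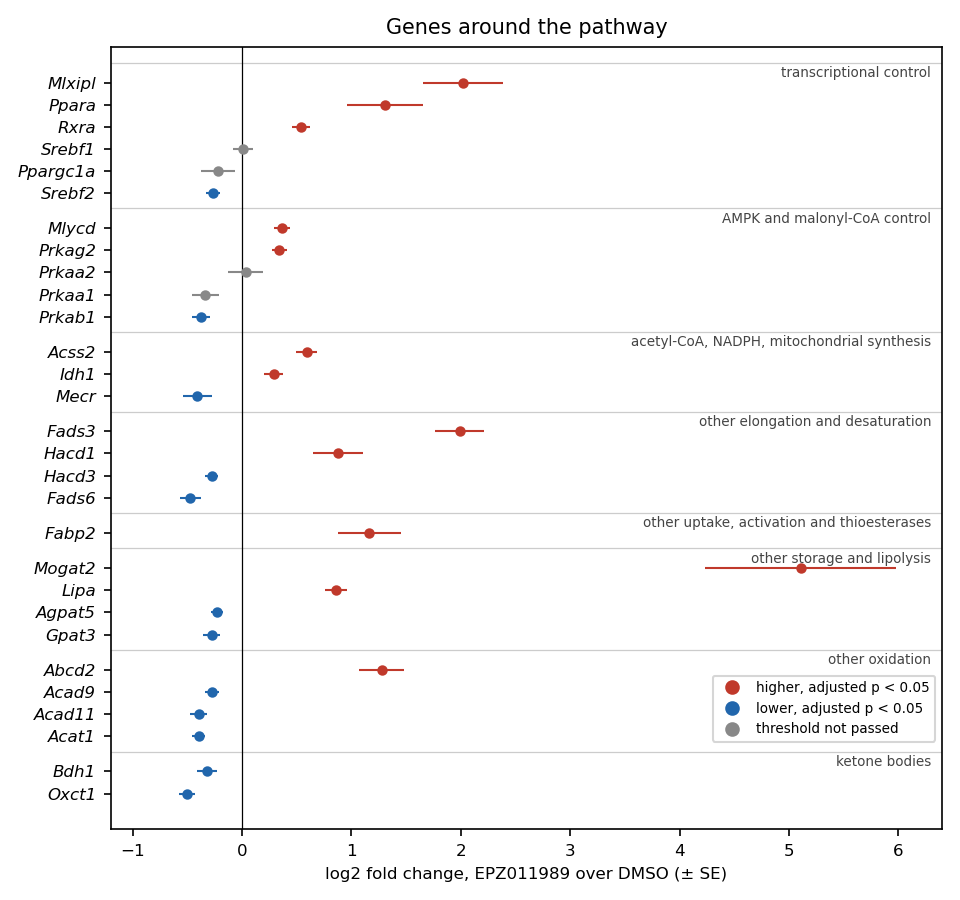
Log2 fold change of the named genes around the pathway other than Mlx and Ppargc1b, EPZ011989 over DMSO, with the standard error as a bar, grouped by role. Red points rose, blue points fell and grey points did not pass, with Mogat2, Mlxipl and Fads3 farthest to the right and Oxct1 and Fads6 farthest to the left.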

How the data were processed

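RNA-seq of αTC1 cells was read from 2 deposited tables. The authors' count table gives raw counts per gene, with 60274140 to 74651782 counts per library. The authors' second table holds a signal that, tested here, equals the counts divided by 1 factor per library (all 20590 matched rows within 0.01). Per the submitters' processing notes, the mm10 build was used with HISAT2, StringTie and DESeq2; whether counting used strand is not given in the sources used here. Gene positions and exon lengths are GENCODE's for GRCm38. Exon length is the union of the exons of all transcripts of a gene and can exceed the length of the RNA made. Among low counts, 4 and 5, and 8 and 9, occur more often than the values beside them, although 1 to 3 are common too. On this basis 4 counts were assumed to be 1 fragment, and the floor of 3 fragments 12 counts. Intervals rest on that assumption and cover counting error only.

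EPZ011989 (4 libraries) was tested against DMSO (5) with edgeR 4.0.16 in R 4.3.3 (TMM, filterByExpr, robust quasi-likelihood F test, two-sided, Benjamini-Hochberg over 14754 genes, call at adjusted p under 0.05). Standard errors are absolute log2 fold changes divided by the square root of F. The alternatives used edgeR, limma 3.58.1 and DESeq2 1.42.0, and the procedure was tested on simulated data. Members and lists were chosen with earlier results of these data known. Every member may be named, and of other pathway genes up to 4 called per role by smallest p, with Srebf1, Mlxipl, Ppara, Pparg, Ppargc1a and Prkaa2. Prkaa1, Mlx and Ppargc1b were added after their values were seen.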

Additional observations from a re-analysis of the deposited data

Results flagged for a closer look

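Within groups, a library was set apart where its gap to the nearest other library took an unusually large share of the group's range (Dixon's criterion at the 95.0% level). This happened in 8 of 174 groups, and chance alone gives about 1 in 20. Agpat2, the lysophosphatidic acid acyltransferase, reached 1.01 CPM in EPZ011989 library 4 and 0.100 CPM in DMSO library 5, each the highest of its group. EPZ011989 library 2 was the lowest of its group for Acadl, the long-chain dehydrogenase, at 72.6 CPM. The same library was the lowest for Hsd17b4 of peroxisomal oxidation, at 72.2 CPM. The summed level of storage and lipolysis was highest in EPZ011989 library 3, at 843 CPM. Among DMSO libraries, library 2 was the lowest for Cd36, at 0.619 CPM. DMSO library 5 was the highest for Dgat1, at 41.8 CPM, and the lowest for Acad11, at 23.1 CPM.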

How the results depend on the processing

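Of the 17 calls among members, those of Elovl7, Dgat2, Cpt1a and Acads held in all 23 alternatives, and leaving out 1 library ended 7 (Fasn, Scd1, Acsl1, Cpt1c, Slc25a20, Acadl and Eci2). With upper-quartile factors 776 genes were lower (2735 higher, against 2388 and 1174), as were 3 members, 1 of synthesis, 0 of storage and lipolysis, 2 of oxidation and 9 neighbouring genes, and the medians were -0.027 for synthesis and 0.20 for storage and lipolysis. With library size alone 4 members were lower, 1 of synthesis and 0 of storage and lipolysis, with medians of -0.030 and 0.20. With the length trend removed 1860 genes and 2 members of storage and lipolysis were lower, with medians of -0.11 and 0.13. DESeq2, with or without independent filtering, gave 2 lower in storage and lipolysis and a synthesis median of -0.062. With limma on log2(value + 1) and log2(value + 10), 2 and 3 were lower in storage and lipolysis, with medians of -0.10 for synthesis and 0.12 for storage and lipolysis in both. The synthesis median was -0.10 with RLE factors and -0.058 with no filter. The storage and lipolysis median was 0.090 with at least 1 CPM in 4 libraries, where 2 of its members were higher, and 0.082 with counts divided by 4. Without EPZ011989 libraries 2 and 4, 4 synthesis members were lower and the storage and lipolysis median was 0.12. In 100 bases before the start, 0 members held the SRE, 2 the E-box and 13 CCAAT. The cause of these shifts was not tested.

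Leaving out 1 library at a time gave 1861 to 2939 genes higher and 781 to 2377 lower, 6 to 14 members higher and 4 to 11 lower, 1 to 2 and 1 to 4 in synthesis, 4 to 5 and 0 to 3 in storage and lipolysis, 1 to 7 and 3 to 5 in oxidation, and 12 to 29 and 9 to 22 neighbouring genes. The medians ran from -0.12 to -0.050 in synthesis, 0.074 to 0.15 in storage and lipolysis and -0.086 to 0.077 in oxidation. The highest counts came without EPZ011989 library 2 for all genes, members and neighbouring genes.

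Values near 0 that did not pass the test changed sign. Fads1 was at 0.037 (upper quartile), 0.027 (library size) and 0.044 (without libraries 2 and 4), and at -0.074 to 0.045 leaving out 1 library. Elovl4 was at 0.033, 0.027 and 0.021 under the same settings. Hadh was at 0.017, 0.0038 and 0.029, and at -0.15 to 0.092 leaving out 1 library. Elovl6 ran from -0.23 to 0.00030 leaving out 1 library. Cpt2 was at -0.019 (length trend removed, both limma pseudocounts) and -0.0049 (limma-voom), and at -0.091 to 0.17 leaving out 1 library. Hsd17b4 was at -0.015 (RLE, both limma pseudocounts), -0.0070 (no filter), -0.0062 (counts divided by 4), -0.027 (length trend), -0.010 (DESeq2) and -0.0015 (limma-voom), and at -0.051 to 0.061 leaving out 1 library. Srebf1 was at -0.012 (RLE), -0.0029 (no filter), -0.0035 (counts divided by 4), -0.015 (length trend), -0.0069 (DESeq2), -0.0039 (both limma pseudocounts) and -0.042 (without libraries 2 and 4), and at -0.062 to 0.040 leaving out 1 library. Prkaa2 was at -0.0090 and -0.0089 (limma pseudocounts) and -0.067 (without libraries 2 and 4), and at -0.17 to 0.12 leaving out 1 library.

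The replicate numbers were checked for pairing: same-numbered libraries correlated at 0.01, -0.10, -0.04 and 0.03 in their deviations from the group means. Such deviations also hold other differences between libraries, such as the trend with exon length. They therefore cannot show whether same-numbered libraries shared a culture or day, and the labels do not say. With the replicate block, 1550 genes were higher and 471 lower, 6 members higher and 2 lower, 1 and 1 in synthesis, 0 lower in storage and lipolysis, 2 and 1 in oxidation, and 10 and 5 neighbouring genes, with a synthesis median of -0.11. Under the block Elovl4 was at 0.0023 and Prkaa2 at -0.042. Calls lost under the block were those of Scd1, Elovl5, Acsl1, Plin2, Mgll, Cpt1c, Slc25a20, Acadl, Hadhb and Echs1, while Plin3 passed as higher. Of the named neighbouring genes, Ppara, Mlx, Ppargc1b, Prkab1, Idh1, Mecr, Hacd1, Hacd3, Gpat3, Agpat5, Bdh1 and Acad9 lost theirs. At the depth reached, members near the floor of 12 counts per library, Elovl2 and Ehhadh, allow no comparison.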

Other observations

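Markers of further cell types were read from lists. The 6 beta cell markers summed to 5.42 to 8.06 CPM with EPZ011989 and to 0.457 to 1.65 CPM with DMSO, and both genes tested, Ins2 and Mafa, rose. The 5 macrophage and leukocyte markers summed to 4.10 to 5.75 CPM with EPZ011989 and to 0.983 to 1.89 CPM with DMSO, 1 of 2 tested genes being higher. The 4 endothelial markers summed to 0.393 to 1.35 CPM with EPZ011989 and to 0.0969 to 0.311 CPM with DMSO, and 1 of 2 tested genes was higher. The 6 hepatocyte markers, of which Ttr is also an alpha cell marker, summed to 947 to 1678 CPM with EPZ011989 and to 1410 to 1792 CPM with DMSO, and none of the 6 passed the edgeR test. The part of these RNAs in the members' values was not tested.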
